A study of Mus musculus with 6 samples.

Results

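The transcripts of 10 genes of fibroblast growth factor (FGF) signaling were read from the RNA of mouse uterus, taken at 4 weeks from control and mutant females: the receptors Fgfr1, Fgfr2, Fgfr3 and Fgfr4, the receptor relative Fgfrl1, and the ligands Fgf2, Fgf7, Fgf9, Fgf10 and Fgf18. They were chosen by name, as every probe set whose annotation gives exactly 1 of these gene symbols. All 10 were measured, by 22 probe sets, among 18193 genes on the arrays. For each gene the brightest probe set, by its mean over the 6 arrays, was taken first, and the others are given beside it. The mutant females were Pgr cre/+ Ctnnb1f(ex3)/+: Cre made from the Pgr gene deletes exon 3 of Ctnnb1 wherever Pgr is active, which leaves a β-catenin that escapes degradation. The controls are wild type by the labels, and Pgr cre/+ and Ctnnb1 f(ex3)/+ mice by the methods, so some controls may carry the Cre or the floxed allele. Each group had 3 arrays. The methods speak of RNA pooled from 3 mice per genotype, so it is not settled that the arrays of a group are separate animals, and the p-values reflect no more than the spread among these 6 arrays, which may be technical.

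FGF receptors are tyrosine kinases of the cell surface that are activated when an FGF ligand and heparan sulfate bind them together, and they signal through the adaptor Frs2 to the ERK cascade. Ligands made in one tissue layer often act on the other: Fgf7 and Fgf10 come from mesenchyme and bind the epithelial splice form of Fgfr2, while Fgf9 binds splice forms of Fgfr3 and Fgfr2 that are found in mesenchyme. In the adult uterus, progesterone acts through the transcription factor Hand2 in the stroma to lower the output of several FGF ligands that stimulate the epithelium.

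In the mutant uterus 2 of the 10 genes were higher and 0 lower at an adjusted p under 0.05 from limma, and the remaining 8 missed the test, against 12.0% of all genes called in either direction, 5.61% higher and 6.36% lower. The higher genes were both receptor genes. Fgfrl1, which encodes a receptor without the tyrosine kinase, rose 2.15-fold, and Fgfr3, which encodes a full receptor kinase, rose 2.47-fold. Fgfr1 and Fgfr2 differed by less than the spread between arrays. The groups did not overlap for 4 of the 10, 2 with the mutants above (14.9% of all genes) and 2 with the mutants below (17.4%), against 32.3% of all genes in either direction, and 2 passed a fold over 1.5 with an unadjusted p under 0.05, against 8.25% of all genes. At an unadjusted p under 0.05, limma gave 2 higher genes and 3 lower ones (Fgf7, Fgf10 and Fgf18, all ligands), where 12.0% of all genes were higher and 14.4% lower by that rule. The methods' t-test gave 2 higher and 0 lower at an unadjusted p under 0.05, where 10.6% of all genes were higher and 12.2% lower. It called 0 of the 10 after Benjamini-Hochberg adjustment, and 105 higher and 39 lower genes among all 18193. The median log2 fold change of mutant over control was -0.09 over the 10 genes and -0.01 over all genes.

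The values deposited were intensities. Array medians ran from 7.23 to 7.42, and 62.3% to 62.6% of probe sets lay below 16 (4 on the log2 scale), where a change may be understated. By their brightest probe set, Fgfr1, Fgfr2 and Fgfrl1 lay at 16 or above on all 6 arrays, and Fgfr4, Fgf2, Fgf9 and Fgf10 lay below 16 on all 6. Defining transcripts of the uterus were bright on every array, with Pgr at a log2 intensity of 9.29 or more and the smooth muscle actin Acta2 at 12.20 or more. In RNA of whole uterus, fewer cells of a type and less RNA per cell cannot be told apart.

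**Figure D1:**
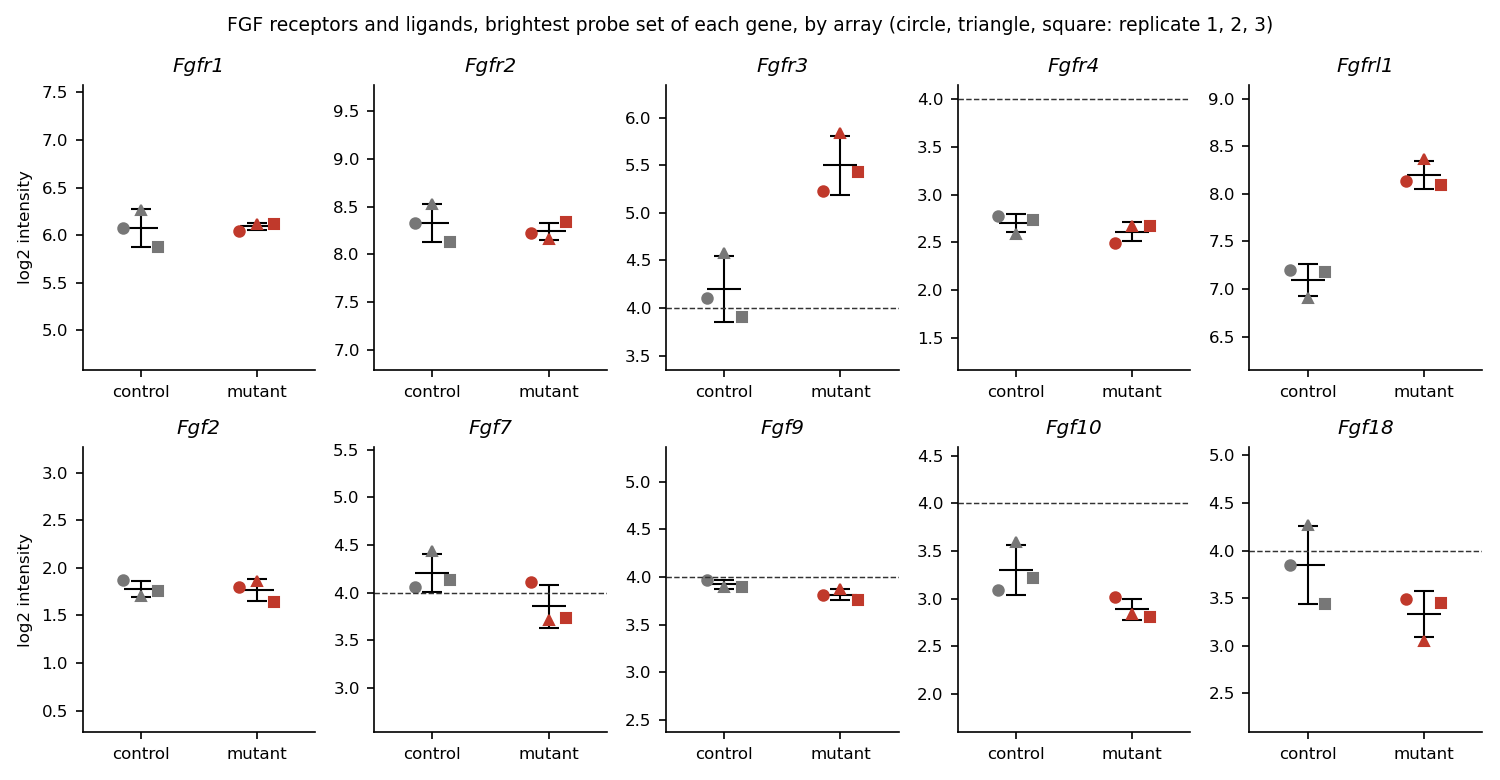
Each panel plots the log2 intensity (y axis) of the brightest probe set of 1 gene by array, grey for the 3 controls and red for the 3 mutants, with black bars for the mean and SD of each group; each y axis spans 3 log2 units, and the dashed line, where in range, marks an intensity of 16. The mutant arrays stand clear above the control arrays for Fgfr3 and Fgfrl1, and the other 8 panels show small shifts or none.

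The start regions of Fgfr3 and Fgfrl1, the called genes, are shown beside that of Fgfr2, a receptor gene that was not called, each as the 250 bases before the transcript start (RefSeq, GRCm38.p6, 5′ to 3′ on the strand of the gene). The Fgfr3 window is chr5:33721474-33721723 on the plus strand, the Fgfrl1 window chr5:108693979-108694228 on the plus strand, and the Fgfr2 window chr7:130266809-130267058 on the minus strand. None of these 3 windows overlaps the annotated gene. Capitals mark GC boxes, the letters GGGCGG or, on the other strand, CCGCCC, which Sp1 family factors can bind.
Fgfr3: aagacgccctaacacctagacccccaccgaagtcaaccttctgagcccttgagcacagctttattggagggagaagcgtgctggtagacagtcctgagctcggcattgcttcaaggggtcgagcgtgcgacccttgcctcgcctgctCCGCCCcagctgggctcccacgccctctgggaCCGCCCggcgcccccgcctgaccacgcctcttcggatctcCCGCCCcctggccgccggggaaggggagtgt
Fgfrl1: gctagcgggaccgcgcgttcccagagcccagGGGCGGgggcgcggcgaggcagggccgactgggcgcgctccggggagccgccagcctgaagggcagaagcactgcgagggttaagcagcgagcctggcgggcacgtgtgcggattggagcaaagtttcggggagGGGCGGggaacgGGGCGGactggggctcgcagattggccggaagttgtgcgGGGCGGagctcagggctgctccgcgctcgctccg
Fgfr2: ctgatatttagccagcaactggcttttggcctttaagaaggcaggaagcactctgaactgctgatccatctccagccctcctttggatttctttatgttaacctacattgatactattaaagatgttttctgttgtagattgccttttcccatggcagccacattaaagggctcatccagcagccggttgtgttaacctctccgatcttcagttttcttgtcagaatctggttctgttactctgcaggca

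The Fgfr3 window held 3 GC boxes and 19 CpG sites at a GC content of 66.8%, and the Fgfrl1 window 4 GC boxes and 30 CpG sites at 73.6%. A second RefSeq window of Fgfr3, chr5:33722056-33722305, lies inside the gene and held 2 GC boxes at 72.8%. The Fgfr2 window held 0 GC boxes and 2 CpG sites at 44%, while that of Fgfr4, likewise not called, held 2 GC boxes at 64%. Over all 32851 windows of this length, 32.7% held a GC box, 16.7% held 2 or more, and the median GC content was 52.4%. The core of the sites bound by TCF/LEF factors, the DNA-binding partners of β-catenin, was searched as CTTTGA and, on the other strand, TCAAAG. It was in 13.8% of all windows and in 0 of the 10 windows listed for 9 of the 10 genes. This says only that these letters are not in these windows. Among the 10 windows, 7 held a GC box and GC content ran from 43.6% to 77.2%, the highest in the window of Fgf18, which was not called.

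Fgfr3 read 4.10, 4.58 and 3.91 (log2 intensity, controls in replicate order) and 5.23, 5.84 and 5.43 (mutants, likewise). The lowest mutant array lay above the highest control array, and control replicate 3 lay below an intensity of 16. The means were 4.20 ± 0.35 and 5.50 ± 0.31 (SD, 3 arrays each). The mutant mean was thus higher by 1.30 ± 0.21 (standard error), with an adjusted p of 0.00854 from limma. The call was kept without each single array (1.13 to 1.49, adjusted p of 0.00694 to 0.0430) and was lost with intensities below 16 raised to 16 (1.27, adjusted p = 0.0832). Nor was it kept with the methods' t-test (adjusted p = 0.107). The other Fgfr3 probe set stayed between 2.32 and 2.48 on all 6 arrays, below 16, where a change may be understated. Its mutant arrays lay just above its control arrays, with a log2 fold change of 0.08 (95% interval -0.10 to 0.27). Thus only 1 of the 2 Fgfr3 probe sets was called, and averaging them gave 0.69.

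Fgfrl1 encodes a receptor that binds FGFs and heparin but has no kinase of its own. Its log2 intensities were 7.20, 6.90 and 7.18 in the controls and 8.14, 8.36 and 8.10 in the mutants, again in replicate order. The groups stood apart by more than the whole range of either group. The means were 7.10 ± 0.17 and 8.20 ± 0.15 (SD, 3 arrays each). The rise was 1.10 ± 0.12 on the log2 scale (standard error), with an adjusted p of 0.00168 from limma. The dimmer Fgfrl1 probe set read 5.15, 4.85 and 5.12 in the controls and 6.35, 6.65 and 6.36 in the mutants. It rose by 1.41 ± 0.12 (standard error), with an adjusted p of 0.000539 from limma over all 45037 probe sets, of which 6.91% were called. Both Fgfrl1 probe sets thus rose, and in both control replicate 2 was the lowest control and mutant replicate 2 the highest mutant. The call was kept without each single array (1.01 to 1.16) and was lost with the methods' t-test (adjusted p = 0.0548).

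Fgfr2, the receptor through which stromal Fgf7 and Fgf10 reach the epithelium, had log2 intensities of 8.33, 8.52 and 8.13 in the controls and of 8.22, 8.16 and 8.34 in the mutants. The mutant values lay within the control range. The log2 fold change was -0.08 (95% interval -0.36 to 0.19, adjusted p = 0.712 from limma). Its other 2 probe sets gave -0.05 and -0.04. Which of these probe sets read the epithelial and which the mesenchymal splice form could not be told from the sources used here.

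Fgfr1, a receptor found widely in mesenchyme, had log2 intensities of 6.07, 6.27 and 5.87 in the controls and of 6.04, 6.12 and 6.11 in the mutants. Again the mutant arrays lay inside the range of the controls. The log2 fold change was 0.02 (95% interval -0.24 to 0.28, adjusted p = 0.937 from limma), and the other 2 Fgfr1 probe sets, all of whose arrays lay below 16, gave -0.04 and 0.07. For Fgfr1 and Fgfr2 these intervals leave out a change as large as that of Fgfrl1 or Fgfr3 in either direction, as far as this spread between arrays goes.

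Fgfr4, a receptor best known from liver, was read by 5 probe sets, and no array of any of them reached an intensity of 16. The brightest read 2.78, 2.59 and 2.74 in the controls and 2.49, 2.67 and 2.67 in the mutants, so the groups overlapped. Its log2 fold change was -0.09 (95% interval -0.30 to 0.13), and those of the other 4 probe sets ran from -0.23 to 0.001.

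**Figure D2:**
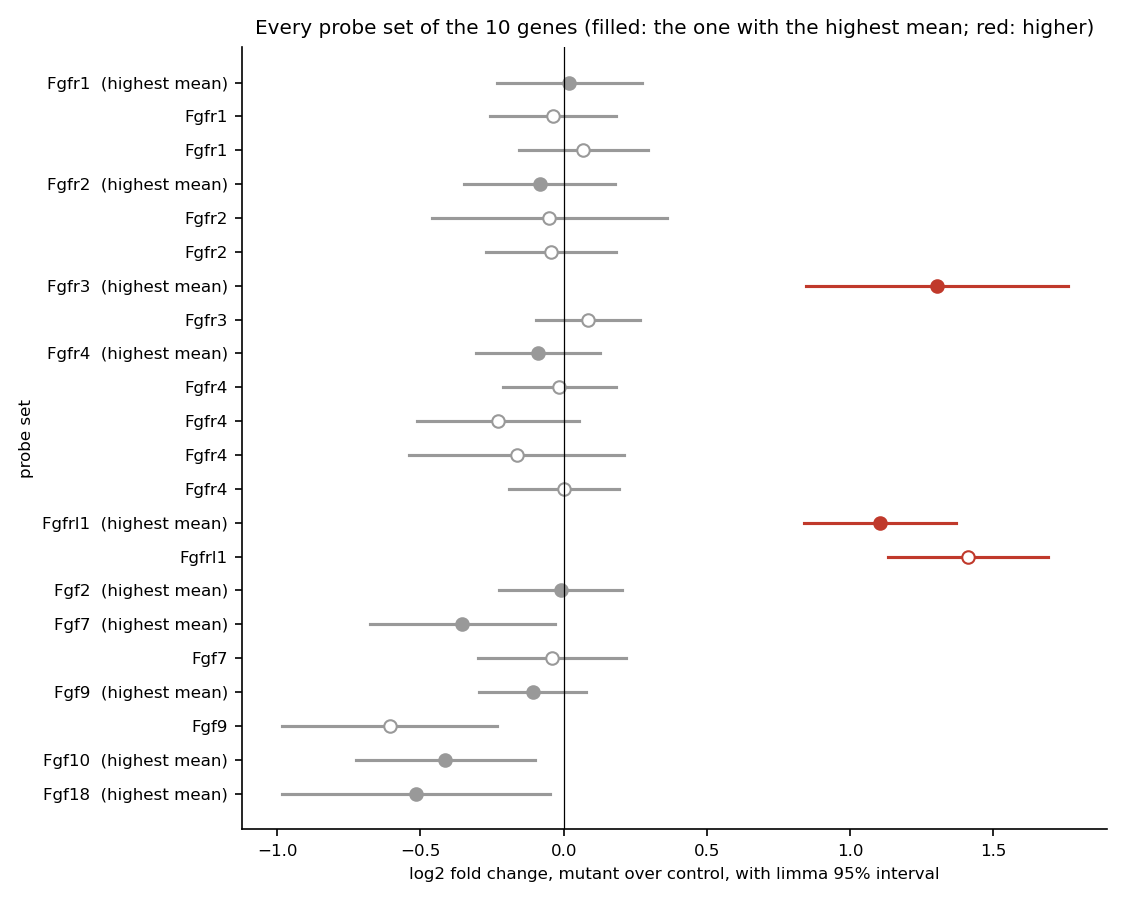
Each row is 1 of the 22 probe sets, placed on the x axis by log2 fold change (mutant over control) with the 95% interval of limma; filled points are the probe set with the highest mean of each gene, red marks a call over all probe sets and grey none. Of the 22, 3 were called higher, 2 of Fgfrl1 and 1 of Fgfr3, and 0 were called lower, against 3.49% and 3.41% of all probe sets. The groups did not overlap for 7 of the 22, against 25.2% of all probe sets.

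Among the ligands, Fgf10, the mesenchymal ligand that drives budding of epithelia, had log2 intensities of 3.09, 3.60 and 3.22 in the controls and of 3.01, 2.84 and 2.81 in the mutants. The highest mutant array was under the lowest control array, as was so for 17.4% of all genes. The log2 fold change of -0.41 (95% interval -0.74 to -0.09) did not pass the test (adjusted p = 0.105 from limma), and all 6 values lay below 16.

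Fgf7, or keratinocyte growth factor, read 4.06, 4.44 and 4.13 in the controls and 4.11, 3.72 and 3.74 in the mutants. The groups overlapped through mutant replicate 1. Its log2 fold change was -0.35 (95% interval -0.69 to -0.02, adjusted p = 0.168 from limma). The other Fgf7 probe set, below 16 on all arrays, gave -0.04.

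Fgf18, a ligand that acts on mesenchyme and prefers Fgfr3, read 3.85, 4.26 and 3.44 in the controls and 3.50, 3.05 and 3.45 in the mutants. The groups overlapped, since control replicate 3 lay below 2 of the mutant arrays. The log2 fold change was -0.52 (95% interval -1.01 to -0.02, adjusted p = 0.173 from limma), from its only probe set.

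Fgf9, a ligand that signals from epithelium to mesenchyme in several organs, read 3.97, 3.90 and 3.89 in the controls and 3.81, 3.87 and 3.76 in the mutants by its brighter probe set. The mutant arrays lay below the control arrays, but by little: the log2 fold change was -0.11 (95% interval -0.29 to 0.07, adjusted p = 0.443 from limma). The dimmer Fgf9 probe set read 2.83, 3.17 and 2.53 in the controls and 2.39, 2.04 and 2.27 in the mutants. Its groups did not overlap either, and its log2 fold change was -0.61 (95% interval -0.98 to -0.23, adjusted p = 0.0667 from limma over all probe sets). The 2 probe sets thus differed in size and not in sign, and all their values lay below 16.

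Fgf2, a ligand stored on heparan sulfate of the matrix, read 1.87, 1.71 and 1.75 in the controls and 1.80, 1.86 and 1.64 in the mutants. These values are at the low end of the arrays, and the groups overlapped. The log2 fold change was -0.01 (95% interval -0.23 to 0.20). No Fgf2 change was detectable by this probe set.

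Among the 17 other FGF ligand genes measured, limma called 2 higher and 0 lower, and left 15 uncalled. Their median log2 fold change was 0.04. At an unadjusted p under 0.05 the lower count stayed at 0, by limma and by the methods' t-test. Of all genes, limma called 5.61% higher and 6.36% lower. The unadjusted shares of lower genes were 14.4% by limma and 12.2% by the t-test. With 17 genes, a count of 0 cannot be told from these shares. Fgf1, an acidic FGF that binds all FGF receptors, read 3.30, 3.56 and 3.28 in the controls and 3.96, 3.95 and 3.90 in the mutants, a rise of 0.56 ± 0.10 (standard error, adjusted p = 0.0116 from limma). Fgf14, an FGF relative that stays inside the cell and acts on sodium channels, was higher by 0.44 on the log2 scale (adjusted p = 0.0139 from limma). Both lay below 16 on all arrays. Their calls were lost without control replicate 1 (Fgf1 at 0.52, adjusted p = 0.0579, and Fgf14 at 0.43, adjusted p = 0.0671) and with the mean of the probe sets of each gene (0.22 and 0.09).

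Of 26 measured genes for coreceptors, FGF carriers and heparan sulfate, 4 were higher, 4 lower and 18 not called, with a median log2 fold change of 0.13. The called share was 30.8%, against 12.0% of all genes (5.61% higher and 6.36% lower). Flrt3, a membrane protein that binds FGF receptors and promotes their signaling, read 5.61, 5.65 and 5.49 in the controls and 6.67, 6.95 and 6.85 in the mutants. It rose by 1.24 ± 0.10 (log2, standard error), at an adjusted p of 0.00056 from limma, and its other probe set by 1.48. Gpc1, a glypican whose heparan sulfate chains hold FGFs at the cell surface, read 6.74, 6.99 and 6.61 in the controls and 7.88, 8.13 and 7.83 in the mutants (1.17, standard error 0.13, adjusted p = 0.00181). For Flrt3 and Gpc1 the gap between the groups exceeded the range within either. Flrt2, a relative of Flrt3, had the opposite sign, with 7.01, 7.04 and 7.18 in the controls and 6.45, 6.34 and 6.28 in the mutants (-0.72, standard error 0.09, adjusted p = 0.00322). Its other 2 probe sets gave -0.45 (adjusted p = 0.0554 from limma over all probe sets) and -0.19 (adjusted p = 0.521). Fgfbp3, a carrier that releases FGFs from the matrix, was higher by 0.84 on the log2 scale (adjusted p = 0.0384 from limma), a call lost without any array but mutant replicate 2 (0.66 to 0.95 without those arrays). The lower genes of this list numbered 2 without control replicate 1, control replicate 3 or mutant replicate 3 each, and 1 without mutant replicate 2.

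Of 18 measured adaptor and relay genes, 2 were higher, 1 was lower and 15 did not pass, with a median log2 fold change of 0.05. The called share was 16.7%, near the 12.0% of all genes. Ptpn11, a phosphatase that Frs2 recruits, had 0.41 (adjusted p = 0.0328 from limma), the adaptor Crkl 0.29 (adjusted p = 0.0488), and the kinase Braf -0.34 (adjusted p = 0.0425). The calls of Crkl and Braf were lost on leaving out any array (adjusted p of 0.0785 to 0.168 for Crkl and 0.0547 to 0.132 for Braf). The call of Ptpn11 was lost without any array but mutant replicate 1 (0.34 to 0.43, adjusted p of 0.0676 to 0.127).

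Among 11 measured feedback genes and factors that FGF signaling induces, limma called 0 higher and 2 lower, and left 9 uncalled. Their median log2 fold change was 0.02. At an unadjusted p under 0.05 the higher count was likewise 0, by limma and by the methods' t-test. Of all genes, limma called 5.61% higher and 6.36% lower. The unadjusted shares of higher genes were 12.0% by limma and 10.6% by the t-test. A list of 11 genes is too short for a count of 0 to be told from these shares. Spry2, an inhibitor of signaling from FGF receptors, read 5.96, 6.21 and 5.86 in the controls and 5.28, 4.73 and 4.87 in the mutants (log2 fold change -1.05, standard error 0.16, adjusted p = 0.00709 from limma). Its dimmer probe set gave -0.06 (adjusted p = 0.802 over all probe sets). Its relative Spry1 had -0.65 (adjusted p = 0.0266 from limma), a call lost on leaving out either of control replicates 1 and 2 or either of mutant replicates 2 and 3 (-0.66 to -0.53, adjusted p of 0.0666 to 0.104). The other widely used readouts of FGF activity, named after their values were seen, had Dusp6 at -0.16, Etv5 at 0.21 and Etv4 at 0.16 (adjusted p = 0.266, 0.474 and 0.340 from limma). The Dusp6 groups did not overlap, with the mutants below, as was so for 17.4% of all genes. Those of Etv5 and Etv4 overlapped, and Etv4 lay below 16 on all arrays, where a change may be understated.

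Of 7 measured regulators of splicing, a group that includes those choosing between the epithelial and mesenchymal forms of Fgfr2, 0 passed the test in limma (1 higher and 3 lower at an unadjusted p under 0.05, and 1 and 1 with the methods' t-test, against 12.0% and 14.4% of all genes by limma and 10.6% and 12.2% by the t-test). Esrp1, which favors the epithelial form, read 7.15, 6.93 and 7.09 in the controls and 6.49, 6.34 and 6.97 in the mutants. The groups overlapped through mutant replicate 3, and the log2 fold change was -0.46 (adjusted p = 0.118 from limma). Without mutant replicate 3 it passed (-0.64, adjusted p = 0.0195). Ptbp2, a neuronal splicing repressor, had -0.28 (adjusted p = 0.0688 from limma). It passed with the lowest 40% of genes left out (adjusted p = 0.047), with an intensity trend (0.049) and with array weights (0.0297), which made the lower count of this list 1, and the mean of its probe sets gave -0.09.

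Of 13 measured genes of the progesterone and Hand2 axis, 5 were higher, 1 was lower and 7 did not pass, with a median log2 fold change of 0.50. The called share was 46.2%, against 12.0% of all genes, in a list chosen with earlier results known. Pgr, the progesterone receptor, from one copy of which the Cre is made, read 10.30, 10.56 and 10.35 in the controls and 9.62, 9.29 and 9.39 in the mutants (-0.97, standard error 0.11, adjusted p = 0.0027 from limma). Hand2 read 8.35, 8.43 and 8.14 in the controls and from 9.37 to 10.02 in the mutants (1.49, standard error 0.18, adjusted p = 0.00315). Its dimmer probe sets gave 0.71 (adjusted p = 0.0885 from limma over all probe sets) and 0.70 (adjusted p = 0.0155). The Hand2 call was lost with a floor of 16 (adjusted p = 0.0566 from limma) and with the methods' t-test (adjusted p = 0.0754). Ihh, the hedgehog ligand of the epithelium, read 2.75, 2.74 and 2.77 in the controls and 4.43, 5.47 and 5.78 in the mutants (2.48, adjusted p = 0.00314). Wnt4, a stromal Wnt ligand, had 0.98 (adjusted p = 0.0324), a call lost without any array but mutant replicate 3 (0.73 to 1.07, adjusted p of 0.0601 to 0.106). The Pgr transcript thus fell while that of Hand2, which acts below it in the stroma, rose. The mutants carry the Cre in Pgr and the controls may not, so effects of that allele and of β-catenin on Pgr cannot be told apart. Of the 4 ligands held down by Hand2 in the mouse uterus, Fgf1 was called higher while Fgf2, Fgf9 and Fgf18 were not called. Fgf1, Fgf2 and Fgf9 lay below 16 on all arrays, and Fgf18 on 5. The Fgf1 call was lost with the mean of its probe sets, the methods' t-test (adjusted p = 0.0791) and without control replicate 1. The higher genes of this list numbered 2 without control replicate 1 or mutant replicate 2, and 3 without control replicate 2, control replicate 3 or mutant replicate 3.

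**Figure D3:**
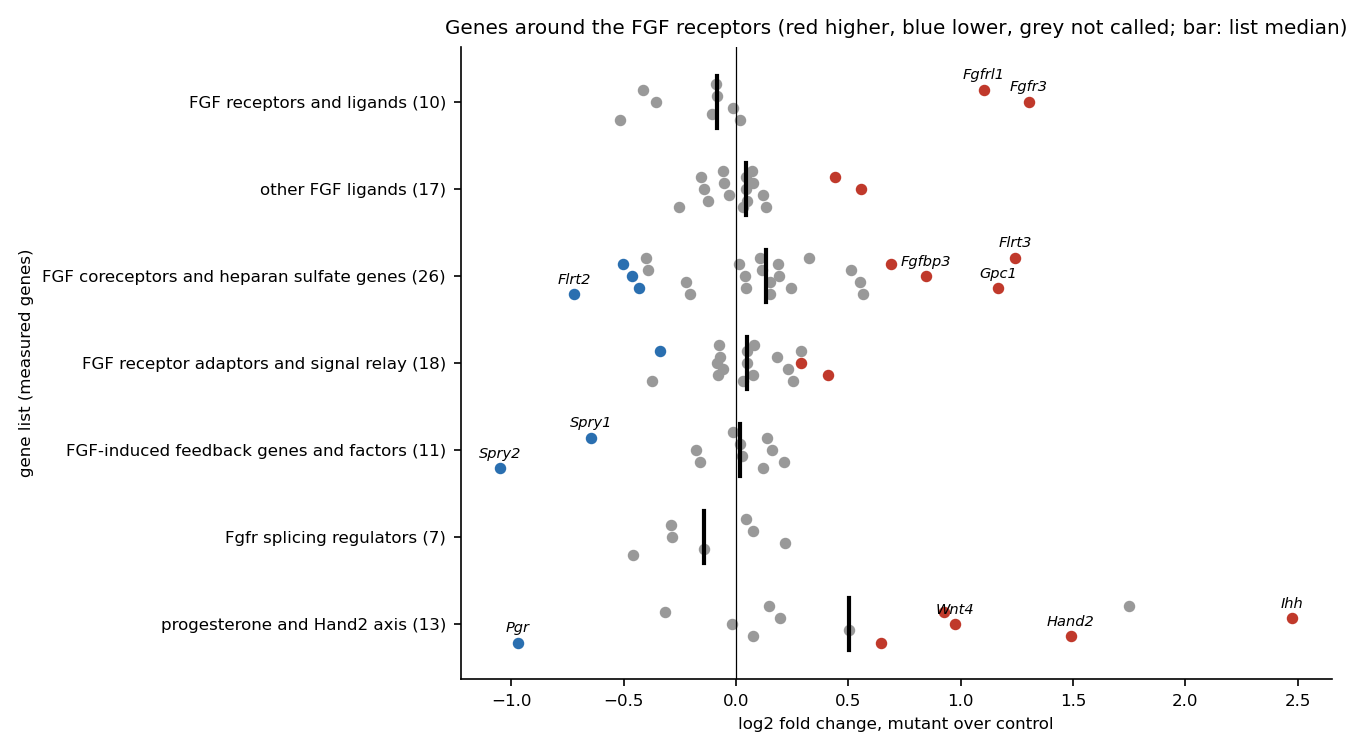
Points are genes, grouped on the y axis by list (number measured in brackets) and placed on the x axis by log2 fold change, mutant over control; limma calls are red for higher and blue for lower, other genes are grey, and a black bar gives each median. Fgfrl1 and Fgfr3 stand apart to the right of the other 8 genes of the top row, and list medians run from -0.14 for the splicing regulators to 0.50 for the progesterone and Hand2 axis.

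Markers of the cell types in a uterus were read beside these values, as the mean log2 intensity of each marker list per array. Over all genes, 5.61% were called higher and 6.36% lower. Those of the stroma lay at 9.97 to 10.12 in the controls, with the mutants inside that range (1 of 13 higher, 0 lower). The 1 higher was Hand2 (1.49), which is also on the progesterone and Hand2 list, as are Hoxa10 and Hoxa11. Its rise enters the stroma mean, and the list median of log2 fold changes was -0.19. By limma 1 was higher and 4 lower at an unadjusted p under 0.05, against 12.0% and 14.4% of all genes. The t-test gave 1 and 2. Non-overlap gave 1 above and 4 below (14.9% and 17.4% of all genes). Those of smooth muscle lay at 8.86 to 9.11 and 8.68 to 9.02, with 0 of 10 called by limma. At an unadjusted p under 0.05 limma gave 1 higher and 2 lower, and the methods' t-test 1 and 1. These smooth muscle counts are close to the shares of all genes given above. Those of the endothelium lay at 6.16 to 6.21 in the controls and 5.91 to 6.23 in the mutants (0 of 9 higher, 1 lower), and those of nerve and glia at 2.51 to 2.63 and 2.51 to 2.58 (0 of 5 called by limma, and 0 at an unadjusted p under 0.05 by limma or the t-test). These 4 lists overlapped between the groups.

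Epithelial markers lay at 7.87 to 8.03 in the controls and 7.42 to 7.92 in the mutants. Of 14, 1 was higher and 4 were lower, against 5.61% and 6.36% of all genes. Krt18 was at -0.81 (adjusted p = 0.00584 from limma) and Krt8 at -0.48 (adjusted p = 0.117). The 1 higher was Foxa2 (1.54, adjusted p = 0.00193 from limma), and Wnt7a fell most (-1.71, adjusted p = 0.00531). Epcam and Krt7 overlapped between the groups (-0.04 and 0.14). The list median of log2 fold changes was -0.40. At an unadjusted p under 0.05, limma gave 1 higher and 7 lower, against 12.0% and 14.4% of all genes. The methods' t-test gave 1 and 5, against 10.6% and 12.2%. Non-overlap gave 2 above and 5 below (14.9% and 17.4% of all genes). Adipocyte markers lay at 4.36 to 5.88 in the controls and 6.50 to 7.04 in the mutants (2 of 8 higher, 0 lower, and each mutant array above each control array for 8 of 8, against 14.9% of all genes). Macrophage markers lay at 5.82 to 5.87 and 6.06 to 6.27 (3 of 10 higher, 0 lower), and mast cell markers at 3.10 to 3.44 and 3.96 to 4.41 (3 of 9 higher, 0 lower). Of the 9 mast cell markers, Hdc, Kit and Ms4a2 were called higher and Tpsb2 was at 2.36 without passing (adjusted p = 0.0847 from limma). Cpa3, Mcpt4, Cma1, Tpsab1 and Fcer1a overlapped between the groups, at -0.02 to 0.24, and Tpsab1, Fcer1a, Mcpt4 and Cma1 lay below 16 on all arrays. The mast cell genes Hdc, which makes histamine, and Kit, the stem cell factor receptor, rose by 2.93 and 1.27 on the log2 scale (adjusted p = 0.000545 and 0.000577 from limma), and C1qa, a complement gene of macrophages, by 0.50 (adjusted p = 0.0111). The 3 macrophage calls were all complement genes (C1qa, C1qb and C1qc). Csf1r, the brightest macrophage marker, had 0.13 and was not called (adjusted p = 0.456 from limma). The adipocyte genes Fabp4 and Lpl had 2.20 and 1.09 and were not called (adjusted p = 0.102 and 0.0785). The means of the adipocyte, macrophage and mast cell lists were thus higher in the mutants, as were Fgfr3 and Fgfrl1, and the part of those cells in the receptor values was not tested. Among the controls, the adipocyte means were 5.60, 5.88 and 4.36 in replicates 1 to 3, with replicate 3 lowest. Fgfr3 had the same order (4.10, 4.58 and 3.91), but so did Fgfr1, Fgfr2 and Fgf18, which were not called. The order of Fgfrl1 was another (7.20, 6.90 and 7.18). An order of 3 arrays is thus not particular to Fgfr3 and is no test of the part of adipocytes. Without control replicate 3 the log2 fold changes were 1.15 for Fgfrl1 and 1.16 for Fgfr3 (adjusted p = 0.00802 and 0.0303 from limma). The control adipocyte means that remain, 5.60 and 5.88, still lay below every mutant mean. Leaving out that array is thus no test of the part of adipocytes either.

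**Figure D4:**
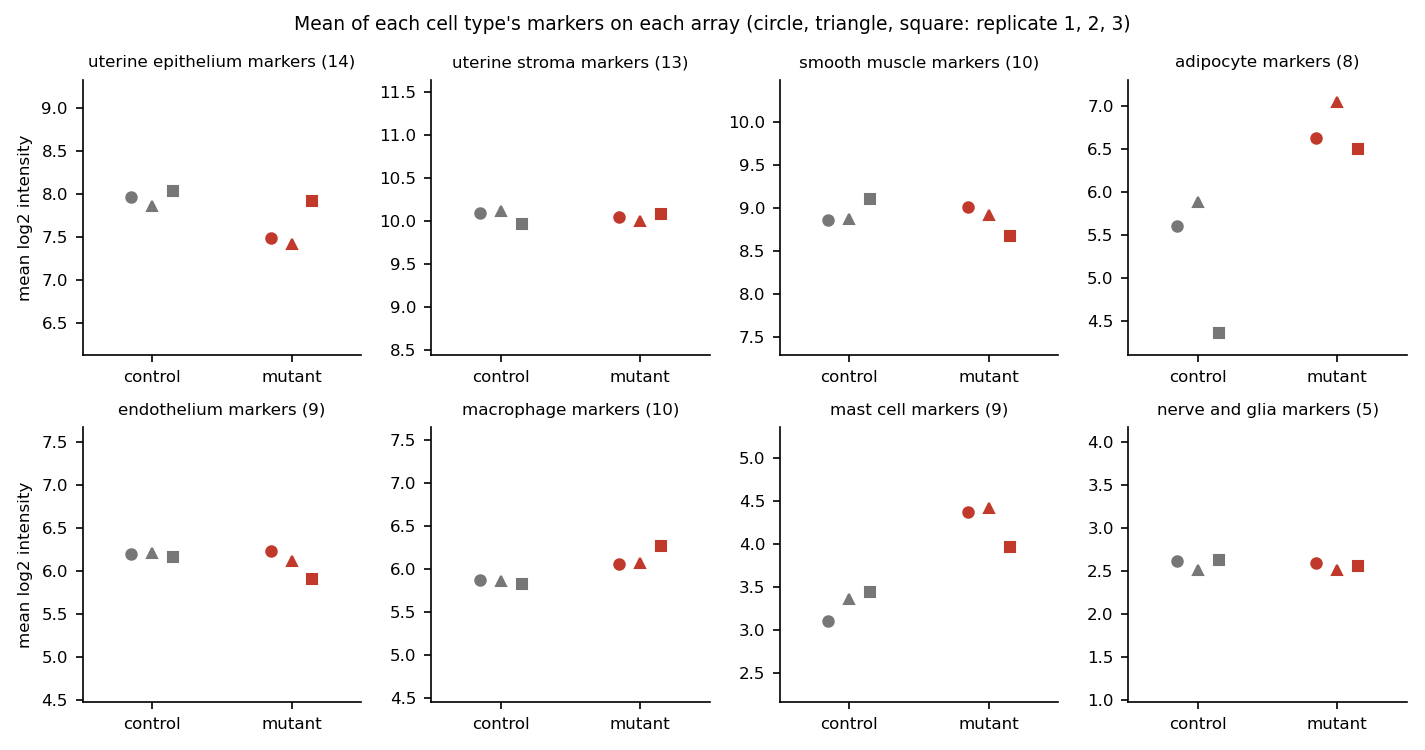
Each panel plots the mean log2 intensity (y axis) of the markers of 1 cell type, with the number of measured markers in brackets, on the 3 control (grey) and 3 mutant (red) arrays; each y axis spans the same range of 3.2 log2 units. Adipocyte, macrophage and mast cell means were higher on each mutant array than on any control array, and those of stroma, smooth muscle, endothelium, epithelium and nerve overlapped.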

How the data were processed

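Affymetrix mouse arrays were used for uterine RNA, 3 for controls and 3 for mutants, and the sample titles gave the groups. The table the authors deposited holds linear intensity values, 1 for each probe set on each array. RMA is the tool named in the submitters' processing notes. It corrects background, scales arrays to a common distribution and summarizes probes, and the sources used here give no version for it. Filters and detection calls are not given there either. Log2 was taken after a floor of 1, which changed 0 values. Of 45037 probe sets, 34945 had 1 gene symbol in GEO's platform annotation, 932 had several and 9160 had none. The comparison of the genotypes used lmFit and eBayes of limma 3.58.1 (R 4.3.3) without covariates. P-values were adjusted by Benjamini-Hochberg across 18193 genes, with 1 probe set per gene, the brightest, or across all probe sets where stated. Errors are SDs beside means and limma standard errors beside fold changes, and intervals are at 95%.

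The genes, lists, motifs and alternatives were chosen with earlier results of these data known, and the GC box after the windows had been seen. Named genes are the 10 members, up to 4 called genes of each pathway list, taken by size of change (where none was called, 2 by smallest p), and the 2 markers of a cell type that were brightest in the controls. Dusp6, Etv4, Etv5, the epithelial markers other than Krt8 and Krt18, and the mast cell markers other than Hdc and Kit were named after their values were seen. The fit was tested on simulated data with the means and spreads of these genes. It called 36% of log2 changes of 0.5, 81% of those of 1 and 98% of those of 2. A gene not called may thus still have changed. Between any pair of arrays, at most 2.11% of probe sets had the same value. No labels give a batch or scan date, so none was tested. Promoter windows are the RefSeq windows of GRCm38.p6 without the bases after the start. The number of arrays limits the precision. Alternatives were other scalings, the mean of the probe sets of a gene, joint adjustment of all probe sets, a filter on the lowest 40% of genes, an intensity trend, a floor of 16, weights for arrays, the methods' t-test, the replicate number as a block, a fold over 1.5 with an unadjusted p under 0.05, and leaving out arrays.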

Additional observations from a re-analysis of the deposited data

How the results depend on the processing

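Fgfrl1 was called higher in 18 of 19 alternatives (log2 fold changes of 1.01 to 1.26) and Fgfr3 in 17 of 19 (0.69 to 1.63), and the count of the 10 genes called lower stayed at 0 in all. With the methods' t-test, 0 of the 10 were called higher: Fgfrl1 had 1.10 (adjusted p = 0.0548) and Fgfr3 1.30 (adjusted p = 0.107). With a floor of 16, 1 of the 10 was called higher, and Fgfr3 had 1.27 (adjusted p = 0.0832). The t-test estimates the spread from each gene alone. Values near 0 that were not called changed sign: Fgfr1 ran from -0.079 to 0.118, Fgfr2 from -0.185 to 0.015 and Fgf2 from -0.056 to 0.051 on leaving out single arrays. Leaving out control replicate 2 together with mutant replicate 1, which was added once the values had been seen, gave 0.025 for Fgfr2, 0.141 for Fgfr1 and -0.064 for Fgf2.

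Over all genes, 5.61% were called higher and 6.36% lower. The 6 pathway lists held 17, 26, 18, 11, 7 and 13 measured genes, in the order given above. Of the genes in these lists, 13 were higher and 8 were lower. These counts were 3 and 2 with a floor of 16, and 1 and 0 with the methods' t-test. The lower count was 5 with the mean of the probe sets of each gene and 4 at a fold over 1.5. On leaving out single arrays the counts ran from 5 to 11 higher and from 3 to 8 lower, and without that pair of arrays they were 8 and 3. The cause was not tested. With the replicate block, Fgfr3 and Fgfrl1 stayed called (adjusted p = 0.00305 and 0.00792 from limma), and 966 genes were higher and 1085 lower, against 1021 and 1157 without it. The block ended the calls of Fgfbp3, Wnt4, Braf and Crkl. Deviations from the group means of same-numbered arrays correlated at 0.01, 0.21 and 0.16, and those of other control and mutant arrays at -0.21 to 0.11. For each mutant array the same-numbered control gave the highest value, by little for mutant replicate 1. These values do not settle whether the numbers are pairs, and the main fit did not take them as pairs. No scaling moved the median of all genes by more than 0.03. Values below 16 limit Fgfr4, Fgf2, Fgf9 and Fgf10 most.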
